A study of Homo sapiens with 6 samples.

Results

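The axonemal dynein genes are a family of 36 genes out of 58051 in the table, listed by symbol as parts of the dynein arms and of the machinery that assembles them. They comprise 13 heavy chains, 7 intermediate and light chains, 5 docking factors and 11 cytoplasmic assembly factors, and all 36 symbols were found, each on a single row. The family was singled out with results of the same comparison already known, so the fold changes and p-values below describe it and do not support the choice. Poly(A)-selected RNA was sequenced from HEK293T, a human embryonic kidney cell line that carries the SV40 T-antigen, 48 hours after transient transfection. The 3 control libraries (CTRL) came from cells given the empty plasmid pcDNA3.1-, and the 3 test libraries (PPK1) from cells given the same plasmid carrying ppk1, which encodes an enzyme of bacteria that makes polyphosphate. Both groups were transfected, and a control and a test library of the same letter (B, C or D) were matched biological replicates. Transfection was transient in 1 cell line, so each library averages over cells that took up more or less plasmid. Counts come from bulk RNA, in which fewer cells making a transcript and less transcript per cell cannot be told apart.

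Axonemal dyneins are the motors that bend motile cilia and sperm tails. Outer arms set beat frequency and inner arms shape the beat, and each arm is built around heavy chains, very large ATPases, to which intermediate and light chains bind. Docking factors fix the outer arms to the doublet microtubules. The arms are assembled in the cytoplasm by dedicated factors working with HSP90 and the R2TP chaperone, which holds the general ATPases RUVBL1 and RUVBL2. In ciliated tissues this programme is switched on by RFX factors, which bind a palindromic promoter element called the X-box, and by the forkhead factor FOXJ1. HEK293T cells are not a multiciliated line.

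The X-box is shown first because members of the family called lower and members not called lower both carry it. Promoter windows of 300 bases (250 before to 50 after the start, RefSeq, GRCh38.p14) were at hand for 27 of the 36 genes. An X-box, here 2 half-sites with 0 to 3 bases between them, searched on both strands, was found in 7 of these 27. It was found in 1.61% of the 27305 genes in the promoter table. The stretches that hold a match, with the match in capitals, read 5′ to 3′ along the gene's strand as follows.
DNAH1, far match, chr3:52316126-52316178, plus strand: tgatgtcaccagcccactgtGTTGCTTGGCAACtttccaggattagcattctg
DNAH1, near match, chr3:52316194-52316247, plus strand: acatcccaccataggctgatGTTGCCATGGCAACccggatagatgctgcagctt
DNAH6, chr2:84516402-84516454, plus strand: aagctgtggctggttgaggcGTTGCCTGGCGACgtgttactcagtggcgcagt
DNAI1, chr9:34458798-34458826, plus strand: gctggtcgGTTGCTGGGTAACcgcgtcag
DNAI2, chr17:74274234-74274262, plus strand: aggccgggGTTGCCAAGCAACcggtaaac
CCDC103, chr17:44899705-44899733, plus strand: ttagcgcaGTTGCTAGGCAACcacagctg
CCDC151, chr19:11435141-11435193, minus strand: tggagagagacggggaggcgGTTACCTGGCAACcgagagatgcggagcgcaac
PIH1D2, chr11:112074007-112074036, minus strand: ccaggctgGTTACCCTGGTAACaggcgtcg

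The match in DNAH6 ended 64 bases before the start and the near match in DNAH1 92 bases before it. Those in CCDC151 and CCDC103 ended 40 and 4 bases before it. With the start as base 1, the matches in DNAI1 (2 to 14) and DNAI2 (9 to 21) lay past it. That in PIH1D2 spanned the start (-11 to 3). Of the 8 genes in the promoter table whose transcript was called lower with ppk1, 3 held an X-box (DNAH6, DNAI1 and PIH1D2). Of the 19 others, 4 did (DNAH1, DNAI2, CCDC103 and CCDC151). These 4 are not all unchanged genes. DNAI2 had too few counts to be tested, CCDC103 had low counts and CCDC151 just missed the threshold (edgeR adjusted p 0.0502). The single half-site GTTGCC, which lies inside many X-boxes, was found in 11 of the 27, against 14.6% of all genes in the table, and in 5 of the 8 called lower. Among the latter, DNAH12, DNAH2 and WDR63 held the half-site with no full match. The forkhead core GTAAACA was found in 1 of the 27 (DNAH9) and in 4.19% of all genes. A match is a run of letters in this window, not a measured binding site.

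Library totals ran from 40851783 to 67122986 counts, the ppk1 library being the deeper of each pair. A count of 0 allows up to 3 counts, or 0.0447 to 0.0734 CPM (counts scaled by library size), a limit that covers counting error only. Of 9 markers of the line, 8 were present and PAX8 had at most 1 count in any library. The neurofilament marker NEFL was called lower (log2 fold change -0.29) and the related INA higher (0.25), and both calls ended without the block and with replicate C left out. Of 8 spermatid markers, 5 had no count in any library. The summed level of 10 multiciliated cell markers was 16.7 to 21.5 CPM in the control libraries and 19.4 to 21.7 CPM with ppk1. No marker was at 0 in all libraries, and TEKT1 and SNTN had no more than 1 count in any. The single markers went both ways. Of 8 tested, 3 were lower and 1 higher in separate groups, against 12.6% and 13.0% of all tested genes. Their median log2 fold change was -0.15. FOXJ1, which is on this list, was called lower (-2.29), but it passed the filter on low counts only through the control group, where it was high. No marker was called higher in the main fit, and 1 was called higher without replicate B. Over all 19574 genes that passed the filter on low counts, 1777 had a Benjamini-Hochberg adjusted p below 0.05 in edgeR's quasi-likelihood test with the replicate letter as a block, which is what "called" means below. That is 9.08% of them, 5.04% lower and 4.04% higher, and the median log2 fold change of all tested genes was 0.01.

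Of the 33 family members that passed the filter, 14 were called lower with ppk1 and 1 higher. The 14 comprised 7 of 12 heavy chains, 3 of 5 intermediate and light chains, 1 of 5 docking factors and 3 of 11 assembly factors. All 14 were lower in all 3 pairs. Of the 14, 9 fell by at least 2-fold (0.920% of all tested genes were called lower by that much). In 13 of the 14 every ppk1 library lay below every control library, as in 12.6% of all tested genes, called or not. Like pairs and separate groups are favoured by the call itself, so these counts are no further support for it. The remaining 3 members, DNAH9, DNAI2 and NME8, had too few counts to be tested. LRRC6 reached the filter's CPM cutoff in 3 control and 2 ppk1 libraries, so it passed largely through the group where it was high.

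**Figure D1:**
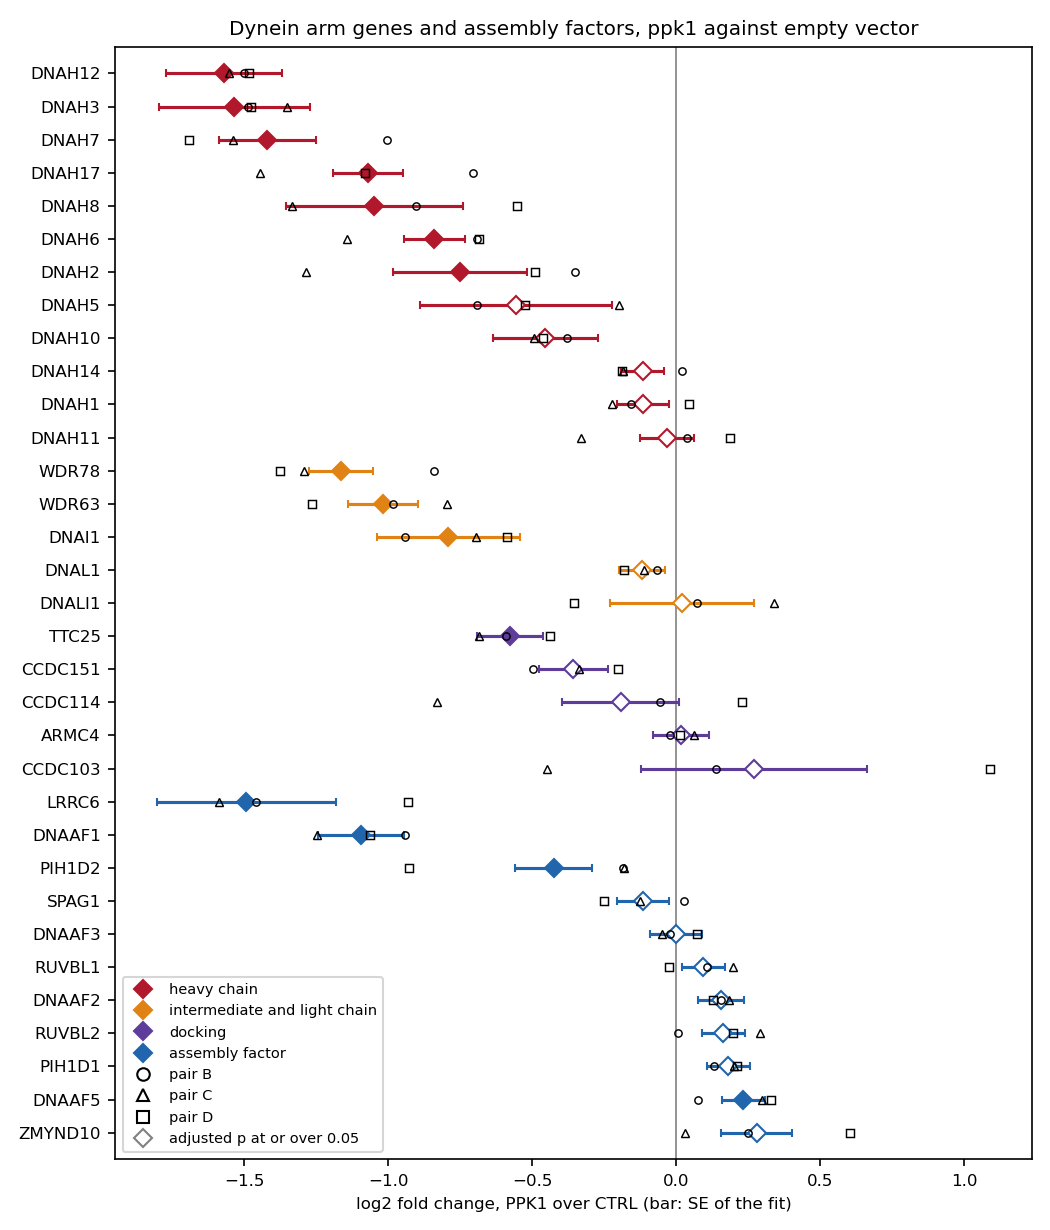
Log2 fold change of each tested member, ppk1 over empty vector, by class. Diamonds are the fitted values with SE bars, filled where the adjusted p was below 0.05, and small open marks are the 3 pairs. The lowest value is -1.57 for DNAH12, and 11 assembly factors run from -1.49 to 0.28.

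Per length of the longest annotated transcript, the family spanned a wide range in control cells. The highest levels were those of RUVBL2 (78.0 ± 3.44 CPM per kb, mean ± SD, n = 3 libraries), PIH1D1 (63.4 ± 0.90), RUVBL1 (40.6 ± 2.88) and DNAAF5 (26.3 ± 2.50). Neighbours in this order differed by more than 4 SD, a spread between libraries that leaves out the choice of length. The longest transcript of PIH1D1 has 1192 bases and all its exons 3331, and for RUVBL1 these are 4062 and 6860. The order of these genes therefore rests on the length used. DNAH14, at 4.80 ± 0.42 CPM per kb, was the highest heavy chain, followed by DNAH1 (1.10 ± 0.13) and DNAH11 (0.99 ± 0.14), which did not differ from each other beyond their SD. DNAH6 (0.82 ± 0.06) and DNAH17 (0.58 ± 0.09) came next, and the other 8 heavy chains lay at 0.253 CPM per kb or below. DNAL1, TTC25, ARMC4, PIH1D2, WDR78 and CCDC151 lay close together between 2.17 and 3.14 CPM per kb, most neighbours among them within 1 SD. All 14 members called lower were below 15 CPM in the controls, before division by length.

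**Figure D2:**
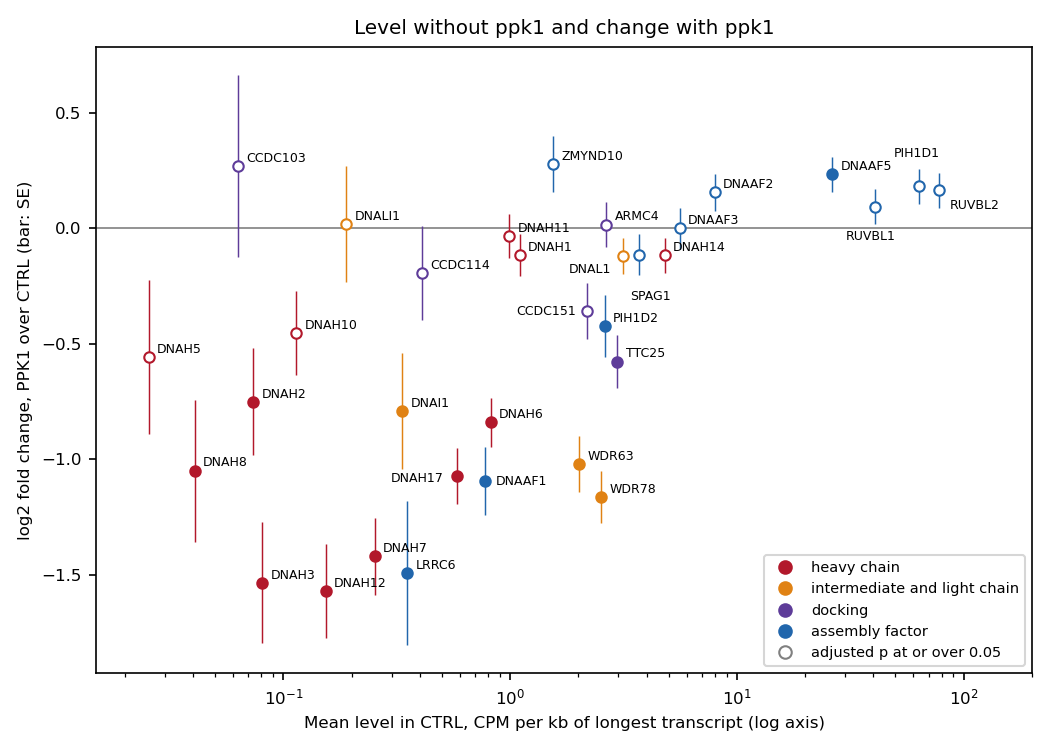
Mean control level in CPM per kb of transcript (log axis) against the log2 fold change with its SE, for each tested member. The filled points, called at an adjusted p below 0.05, lie mostly to the left; the members above 4 CPM per kb all lie between -0.12 and 0.23.

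Among the single-headed inner arm heavy chains, DNAH12, DNAH3, DNAH7 and DNAH6 fell, and DNAH1 did not pass the test. DNAH12 (ENSG00000174844, chromosome 3) had 1.69, 2.10 and 1.81 CPM in control libraries B, C and D and 0.569, 0.688 and 0.622 CPM in the ppk1 libraries. The groups lay far apart, and DNAH12 fell to 33.7% of its control level, the lowest log2 fold change of the family (-1.57, SE 0.20, edgeR adjusted p 1.9e-07). DNAH3 (ENSG00000158486, chromosome 16) had 0.871, 1.13 and 1.00 CPM in the controls and 0.284, 0.417 and 0.335 CPM with ppk1. These rest on 41 to 50 counts in the control libraries and 14 to 20 in the ppk1 libraries. The log2 fold change of DNAH3 was -1.53 (SE 0.26, edgeR adjusted p 4.4e-05), and the pairs gave much the same value (-1.49, -1.35 and -1.47).

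DNAH7 (ENSG00000118997, chromosome 2) had 2.44, 3.23 and 3.72 CPM in the control libraries and 1.20, 1.08 and 1.12 CPM in the ppk1 libraries. The ppk1 values were tight and the control values were not, so its pair changes ran from -1.004 in B to -1.69 in D around a fitted -1.42 on the log2 scale (SE 0.17, edgeR adjusted p 2.6e-08). DNAH6 (ENSG00000115423, chromosome 2) was the most abundant per length of the heavy chains that fell, with 9.87, 11.3 and 10.4 CPM in the controls and 6.09, 5.11 and 6.44 CPM with ppk1. Its log2 fold change was -0.84 (SE 0.11, edgeR adjusted p 1.5e-07), with the largest drop in pair C (-1.14). DNAH1 (ENSG00000114841, chromosome 3) had 15.6, 15.7 and 12.6 CPM in the controls and 13.97, 13.46 and 13.02 CPM with ppk1. The groups overlapped and its log2 fold change was -0.12 (SE 0.09, edgeR adjusted p 0.46). DNAH1 carries 2 of the X-box matches printed above, and whether a match bears on the change was not tested.

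DNAH14 (ENSG00000185842, chromosome 1), a heavy chain whose place in the axoneme is less well described, had 63.1, 62.4 and 72.8 CPM in the controls and 64.0, 55.0 and 63.8 CPM with ppk1. The groups overlapped, and the log2 fold change was -0.12 (SE 0.08, edgeR adjusted p 0.37). It supplied 53.7 ± 3.36% of the CPM of all heavy chains in control cells and 59.5 ± 0.85% with ppk1 (mean ± SD, n = 3). The transcripts of the 13 heavy chains are of like length, from 12146 to 15633 bases.

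The 2 heavy chains of the double-headed inner arm are DNAH2 and DNAH10. DNAH2 (ENSG00000183914, chromosome 17) had 0.909, 1.53 and 0.857 CPM in the controls and 0.704, 0.605 and 0.598 CPM with ppk1. Control C stood above the others, and the fitted value of -0.75 (log2, SE 0.23, edgeR adjusted p 0.030) was -0.43 without replicate C (adjusted p 0.71). It was not called without the replicate block (0.13), by DESeq2 (0.34), with upper-quartile scaling (0.0556) or after thinning all libraries to the smallest (0.055). DNAH10 (ENSG00000197653, chromosome 12) had 1.59, 1.69 and 1.66 CPM in the controls and 1.21, 1.19 and 1.20 CPM with ppk1. The groups did not overlap and all pairs were alike (-0.38, -0.49 and -0.46), yet it missed the threshold (log2 fold change -0.45, SE 0.18, edgeR adjusted p 0.11). Of its exon sequence, 16.6% lies opposite DNAH10OS and CCDC92, whose reads cannot be told apart from its own if the counting ignored the strand, a setting the sources used here do not give.

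Of the outer arm heavy chains, DNAH17 and DNAH8 fell, DNAH11 and DNAH5 did not pass the test and DNAH9 was at the floor. DNAH17 (ENSG00000187775, chromosome 17), a beta-type chain best known from sperm tails, had 6.69, 8.94 and 8.40 CPM in the controls and 4.09, 3.26 and 3.95 CPM with ppk1. It fell to 47.6% of its control level (log2 fold change -1.07, SE 0.12, edgeR adjusted p 8.4e-09), most in pair C (-1.45) and least in pair B (-0.70). Of its exon sequence, 9.73% lies opposite DNAH17-AS1 and PGS1. DNAH8 (ENSG00000124721, chromosome 6), a gamma-type chain also known from sperm, had 0.568, 0.745 and 0.441 CPM in the controls and 0.284, 0.271 and 0.287 CPM with ppk1. That is 18 to 33 counts against 12 to 19, and the log2 fold change was -1.05 (SE 0.31, edgeR adjusted p 0.021). The call of DNAH8 ended without the block (adjusted p 0.070), without replicate B (0.052), without replicate C (0.43), by DESeq2 (0.33) and after thinning (0.054).

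DNAH11 (ENSG00000105877, chromosome 7), the other beta-type chain present, had 16.2, 13.3 and 12.5 CPM in the controls and 16.6, 10.6 and 14.3 CPM with ppk1. The libraries overlapped, the pairs went both ways and the log2 fold change was -0.03 (SE 0.09, edgeR adjusted p 0.87). It turned to 0.11 without replicate C and 0.0068 with offsets for GC content and length. DNAH5 (ENSG00000039139), the gamma-type chain of airway cilia, had between 12 and 23 counts in every library, and differed by -0.56 on the log2 scale (SE 0.33, edgeR adjusted p 0.32). DNAH9, the beta-type chain of airway cilia, had no more than 2 counts in any library. Neither was above 0.5 CPM in any library.

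**Figure D3:**
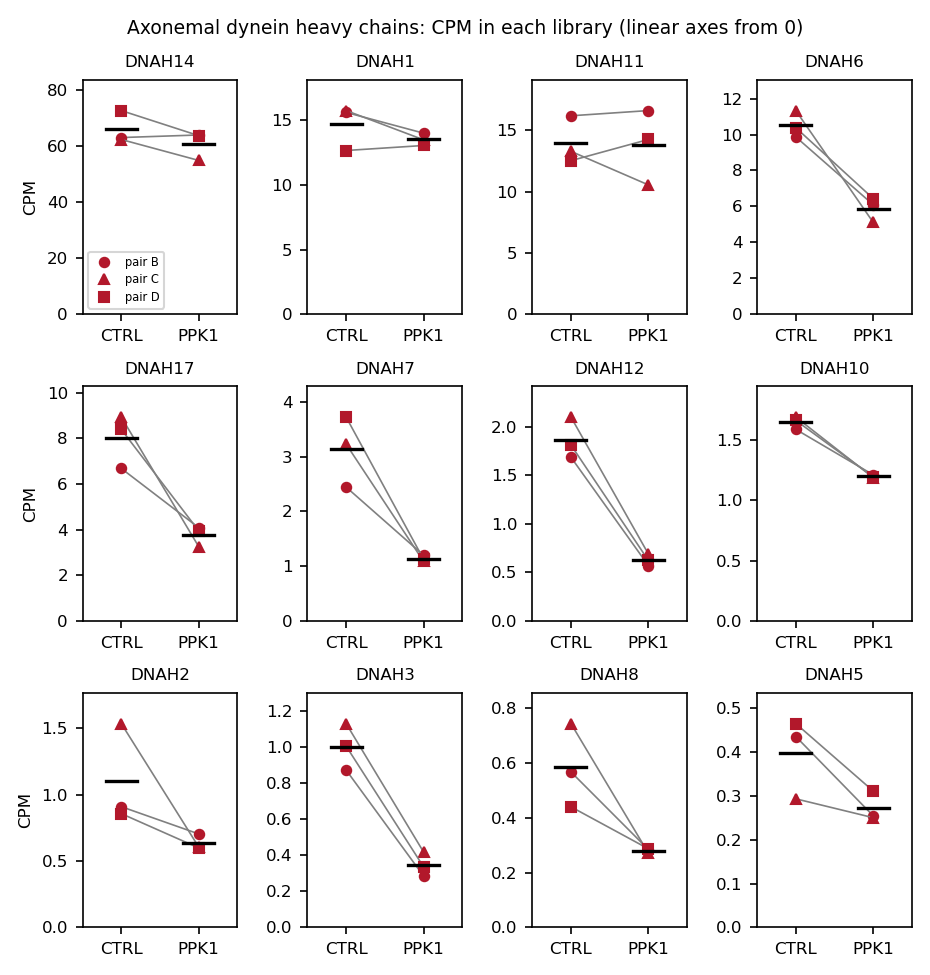
Level in CPM of the 12 tested heavy chains in each library, on linear axes that start at 0, ordered by control level. Marks are libraries, grey lines join matched pairs and black bars are group means; DNAH6, DNAH17, DNAH7, DNAH12, DNAH10, DNAH2, DNAH3 and DNAH8 have separate groups, and DNAH14, DNAH1, DNAH11 and DNAH5 overlap.

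Summed over the 13 heavy chains, the control libraries held 120.0, 122 and 127 CPM and the ppk1 libraries 109, 91.8 and 106 CPM. All control sums lay above all ppk1 sums, and by pair the log2 ratio was -0.13 (B), -0.41 (C) and -0.26 (D). The sum is mostly DNAH14. Without it, the sums were 56.9, 60.0 and 53.9 CPM against 45.3, 36.9 and 42.2 CPM. No heavy chain was called higher by edgeR, none was higher at an unadjusted p below 0.05 (12.2% of all tested genes were, and 11.6% were lower), and DESeq2 also called 0 higher. All 12 tested had a log2 fold change below 0, with a median of -0.80.

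The intermediate chains of the double-headed inner arm, WDR78 and WDR63, fell together. WDR78 (ENSG00000152763, chromosome 1, DNAI4 in RefSeq) had 9.30, 9.73 and 12.7 CPM in the controls and 5.18, 3.94 and 4.86 CPM with ppk1. It fell to 44.7% of its control level, or by 1.16 on the log2 scale (SE 0.11), and its edgeR adjusted p of 5.4e-11 was the smallest in the family. WDR63 (ENSG00000162643, chromosome 1, DNAI3 in RefSeq) had 6.55, 6.365 and 8.10 CPM in the controls and 3.29, 3.65 and 3.35 CPM with ppk1. In both genes control D was the highest library, and the groups stood well apart. The log2 fold change of WDR63 was -1.02 (SE 0.12, edgeR adjusted p 2.6e-08).

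DNAI1 (ENSG00000122735, chromosome 9), an intermediate chain of the outer arm, had 0.814, 0.835 and 0.955 CPM in the controls and 0.404, 0.501 and 0.622 CPM with ppk1. The groups did not overlap, and DNAI1 fell by 0.79 on the log2 scale (SE 0.25, edgeR adjusted p 0.035). It rests on 24 to 43 counts a library and lost its call without the block (adjusted p 0.092), without replicate B (0.15), without replicate C (0.23), by DESeq2 (0.35) and after thinning (0.11). Its outer arm partner DNAI2 had 1 to 3 counts in the control libraries and 6 or 7 in the ppk1 libraries. Those counts are too few for the test. NME8, a thioredoxin-like outer arm subunit, had no count in any library.

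The light chains did not pass the test. DNAL1 (ENSG00000119661, chromosome 14), an outer arm light chain, had 24.6, 26.6 and 28.1 CPM in the controls and 23.5, 24.6 and 24.7 CPM with ppk1. These ranges overlapped narrowly, and its log2 fold change was -0.12 (SE 0.08, edgeR adjusted p 0.38). DNALI1, an inner arm light chain, stood at 0.67 ± 0.15 CPM in control cells and 0.67 ± 0.05 CPM with ppk1 (mean ± SD, n = 3), at 0.02 on the log2 scale (SE 0.25) whose sign changed with the scaling (-0.0019 with upper-quartile scaling).

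Of the docking factors, TTC25 alone was called. TTC25 (ENSG00000204815, chromosome 17) had 6.40, 6.77 and 6.93 CPM in the controls and 4.24, 4.19 and 5.10 CPM with ppk1. It fell to 67.1% of its control level (log2 fold change -0.58, SE 0.11, edgeR adjusted p 0.00044), and the groups did not overlap. CCDC151 (ENSG00000198003, chromosome 19, ODAD3 in RefSeq) had 5.85, 5.12 and 4.99 CPM in the controls and 4.13, 4.05 and 4.33 CPM with ppk1. Every ppk1 library was below every control library, and its adjusted p was just over the threshold (log2 fold change -0.36, SE 0.12, edgeR adjusted p 0.0502). It was called with RLE scaling (0.0495), with offsets for GC content and length (0.0084) and without replicate D (0.018).

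ARMC4 (ENSG00000169126, chromosome 10), which also serves the docking complex, had 9.72, 8.76 and 9.99 CPM in the controls and 9.57, 9.14 and 10.1 CPM with ppk1. The libraries of both groups were mixed in order, and the log2 fold change was 0.02 (SE 0.10, edgeR adjusted p 0.94), below 0 with upper-quartile scaling (-0.0056). Of the ARMC4 transcript, 8.23% (in stretches of 50 bases) is shared with ARMC4P1. CCDC114 had 1.31 ± 0.10 and 1.16 ± 0.38 CPM (mean ± SD, n = 3), its low value being ppk1 library C (0.730 CPM). CCDC103, which helps dynein bind the axoneme, had 6 to 17 counts a library. All of its transcript sequence (100%, in stretches of 50 bases) also occurs in the overlapping gene FAM187A, so its value is uncertain.

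**Figure D4:**
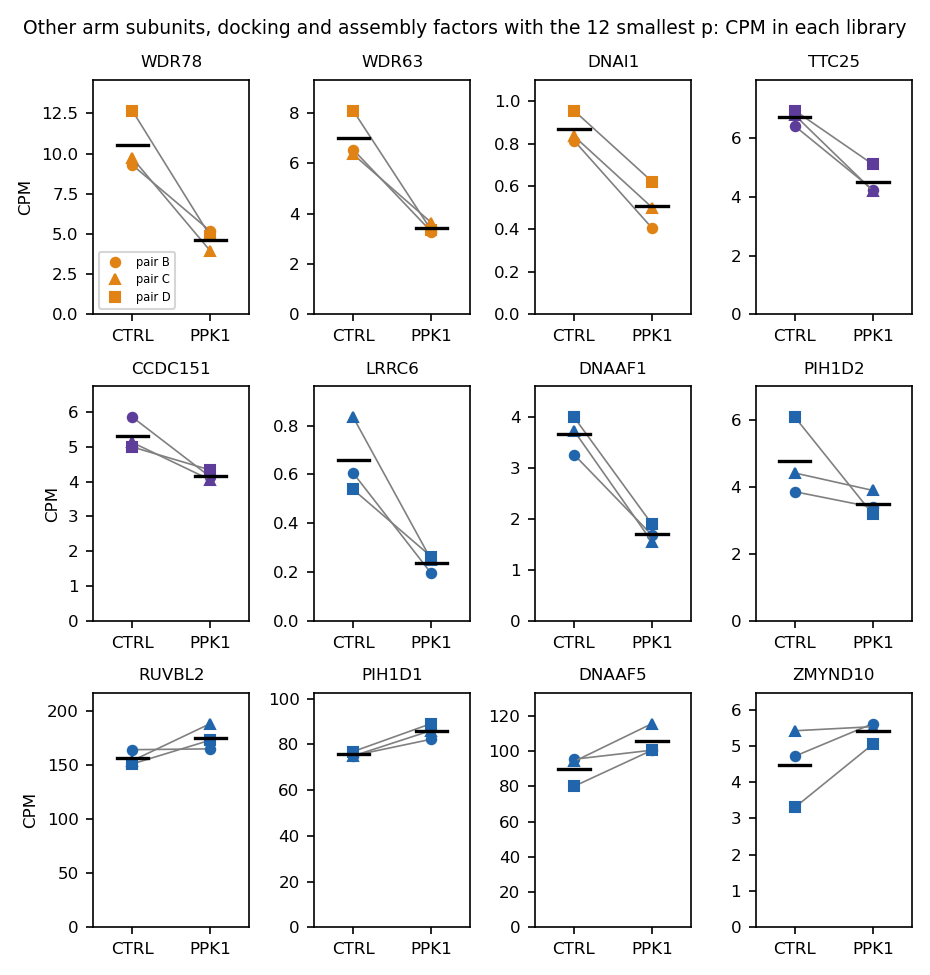
Level in CPM in each library of the non-heavy-chain members with the smallest p-values, on linear axes that start at 0. Marks are libraries, grey lines join matched pairs and black bars are group means; WDR78, WDR63, DNAI1, TTC25, CCDC151, LRRC6 and DNAAF1 have lower, separate ppk1 groups, while RUVBL2, PIH1D1 and DNAAF5 lie higher with ppk1.

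The assembly factors split. DNAAF1 and LRRC6, leucine-rich repeat proteins known for their part in ciliated cells, fell. DNAAF1 (ENSG00000154099, chromosome 16) had 3.26, 3.72 and 3.99 CPM in the controls and 1.68, 1.54 and 1.89 CPM with ppk1. It fell to 46.8% of its control level in well separated groups (log2 fold change -1.09, SE 0.15, edgeR adjusted p 6.6e-07). LRRC6 (ENSG00000129295, chromosome 8) had 0.606, 0.835 and 0.539 CPM in the controls and 0.195, 0.250 and 0.263 CPM with ppk1, from 22 to 37 and 11 to 13 counts. Its log2 fold change was -1.49 (SE 0.31, edgeR adjusted p 0.00085), and it was not called by DESeq2 (adjusted p 0.101).

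ZMYND10, the known binding partner of LRRC6, stood at 4.48 ± 1.08 CPM in control cells and 5.40 ± 0.30 CPM with ppk1 (mean ± SD, n = 3). Its log2 fold change was 0.28 (SE 0.12, edgeR adjusted p 0.15), with overlapping groups. PIH1D2 (ENSG00000150773, chromosome 11), a PIH-domain cochaperone, had 3.86, 4.42 and 6.10 CPM in the controls and 3.40, 3.90 and 3.18 CPM with ppk1. Control D stood above the rest, the groups overlapped, and the fitted value of -0.42 (log2, SE 0.13, edgeR adjusted p 0.035) was -0.20 without replicate D (adjusted p 0.43). Its call also ended without the block (0.17), without replicate C (0.057), by DESeq2 (0.25), with upper-quartile scaling (0.066), with a mean of at least 50 counts (0.059) and after thinning (0.075). Of its exon sequence, 16.2% lies opposite DLAT and NKAPD1.

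DNAAF5 (ENSG00000164818, chromosome 7), a HEAT-repeat assembly factor, was the one member called higher. It had 95.3, 94.0 and 80.0 CPM in the controls and 100.5, 116 and 100.5 CPM with ppk1, groups that did not overlap. The rise was small (log2 fold change 0.23, SE 0.08, edgeR adjusted p 0.040), and its call ended without the block (0.18), without replicate C (0.61), without replicate D (0.15), by DESeq2 (0.077) and under 5 of the other settings tried. DNAAF2, DNAAF3 and SPAG1, which act in the same cytoplasmic pathway, had log2 fold changes of 0.16, -0.0006 and -0.11 and did not pass the test. Of the DNAAF3 transcript, 19.0% is shared with AC010327.1, and 27.2% of its exon sequence lies opposite AC010327.3, so this value is uncertain.

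The R2TP members, which serve many complexes besides dynein, were the highest of the family per kb of transcript in control cells and did not pass the test. RUVBL1 (ENSG00000175792, chromosome 3) had 156, 161 and 178 CPM in the controls and 168, 185 and 175 CPM with ppk1. RUVBL2 (ENSG00000183207, chromosome 19) had 165, 154 and 151 CPM in the controls and 165, 189 and 173 CPM with ppk1. PIH1D1 (ENSG00000104872, chromosome 19) had 75.1, 74.9 and 76.8 CPM in the controls and 82.2, 86.0 and 89.1 CPM with ppk1. The groups overlapped for RUVBL1 and were separate, with higher ppk1 values, for RUVBL2 (narrowly, with both B libraries at 165 CPM) and PIH1D1. Their log2 fold changes were 0.09, 0.16 and 0.18 (SE 0.07 each), with edgeR adjusted p-values of 0.47, 0.16 and 0.12. Of the exon sequence of RUVBL1, 10.4% lies opposite EEFSEC and SEC61A1.

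Set side by side, the median log2 fold change was -0.80 for the heavy chains, -0.79 for the intermediate and light chains, -0.19 for the docking factors and 0.09 for the assembly factors, against 0.01 for all tested genes. By pair (B, C, D) the heavy chain median was -0.69, -1.21 and -0.54 and the assembly factor median 0.03, 0.03 and 0.07. Lower and separate groups were found for 8 of 12 heavy chains, 5 of 10 intermediate, light and docking factors and 2 of 11 assembly factors, and for 12.6% of all tested genes. Higher and separate groups were found for 4 of 11 assembly factors and 13.0% of all tested genes. The difference between classes was not tested. Without replicate C, 5 heavy chains, 2 intermediate and light chains, 1 docking factor and 2 assembly factors were called lower and none higher. Over all tested genes that fit called 2.06%, 1.64% lower and 0.415% higher. Leaving out the replicate block gave the same 4 counts, against 2.40% of all tested genes, 1.95% lower and 0.455% higher. DESeq2 called 5 heavy chains, 2 intermediate and light chains, 1 docking factor and 1 assembly factor lower and none higher, against 4.36% of all genes it tested, 2.49% lower and 1.87% higher.

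Heavy chain transcripts are long. Of 323 tested genes with a transcript of at least 12000 bases, 9.91% were called lower, against 5.04% of all tested genes, and their median log2 fold change was -0.04. When GC content and transcript length entered the fit as offsets, the same 7 heavy chains were called, with a median log2 fold change of -0.77 over the 12 tested. That fit called more genes: 13.8% of all it tested, 8.21% lower and 5.64% higher, and of the long transcripts 12.4% lower and 8.36% higher.

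Of the genes of the wider pathway, the cytoplasmic dyneins, which share a common plan with the axonemal motors, differed little as a list. The list joins the general cargo motor and the dynein of intraflagellar transport, to which all genes named here except DYNC1H1 belong. None of the 9 was called lower by edgeR (2 at an unadjusted p below 0.05) or by DESeq2. One gene, WDR34, an intermediate chain of the intraflagellar transport dynein, was called higher. Of all tested genes, 5.04% were called lower, 4.04% were called higher and 11.6% were lower at that unadjusted p. WDR34 had 107, 106 and 99.5 CPM in the controls and 121, 131 and 124 CPM with ppk1, 0.27 higher on the log2 scale (SE 0.07, edgeR adjusted p 0.014, but 0.42 with replicate C left out and 0.064 without the block). WDR60, its partner chain, just missed the threshold (-0.22 on the log2 scale, SE 0.07, edgeR adjusted p 0.054), and a member of the list was called lower in 6 of the alternative edgeR fits: WDR60 in 5 of them and DYNC2LI1 without replicate B. The heavy chains DYNC1H1 and DYNC2H1 had log2 fold changes of 0.07 and -0.04. The summed level of the 9 cytoplasmic genes was between 1356 and 1391 CPM in the controls and between 1393 and 1431 CPM with ppk1.

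In the nexin-dynein regulatory complex and the ruler proteins, which hold neighbouring doublets together and set the spacing of the arms, 2 of 10 tested genes fell and none was called higher by edgeR or DESeq2. DRC3 had 5.06, 4.97 and 4.602 CPM in the controls and 2.99, 3.32 and 2.94 CPM with ppk1 (log2 fold change -0.66, SE 0.13, edgeR adjusted p 0.00025). CCDC65 stood at -0.78 on the log2 scale (SE 0.21, edgeR adjusted p 0.010, but 0.076 without the block, 0.057 without replicate D and 0.20 by DESeq2). The ruler pair CCDC39 and CCDC40 had log2 fold changes of -0.43 and -0.07 and did not pass the test. The median of the list was -0.34, with 5 genes lower and 0 higher at an unadjusted p below 0.05, and 4 were called lower without replicate B and with the GC and length offsets. Over all tested genes 5.04% were called lower and 11.6% were lower at that unadjusted p. The groups were separate and lower for 6 of the 10 and separate and higher for 1, against 12.6% and 13.0% of all tested genes.

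Of 11 other arm and docking genes, 8 were tested, 1 fell and 1 rose, against 5.04% of all tested genes called lower and 4.04% higher. DNAL4, a dynein light chain, had 24.2, 23.9 and 24.7 CPM in the controls and 18.5, 16.2 and 17.2 CPM with ppk1, a difference of -0.49 on the log2 scale (SE 0.08, edgeR adjusted p 3.2e-05). Its groups were tight and well apart. DYNLL1, a light chain shared with many other complexes, rose by 0.31 on the log2 scale (SE 0.08, edgeR adjusted p 0.0047), in overlapping groups, and its call ended when replicate C was left out (0.50) and in the fit without the block (0.15). Of 9 other assembly and import genes, 7 were tested and none was called by edgeR or DESeq2. At an unadjusted p below 0.05 in edgeR, 1 was lower and 1 higher, against 11.6% and 12.2% of all tested genes.

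Among the regulators of motile ciliogenesis, 3 of 7 tested fell. None was called higher by edgeR (1 at an unadjusted p below 0.05, and 1 called without replicate B) or DESeq2. The shares over all tested genes were 5.04% called lower, 4.04% called higher and 12.2% higher at that unadjusted p. FOXJ1 had 19, 19 and 24 counts in control libraries B, C and D and 8, 3 and 3 in the ppk1 libraries, a difference of -2.29 on the log2 scale (SE 0.42, edgeR adjusted p 0.00012). It reached the filter's CPM cutoff in 3 control libraries and no ppk1 library, so it was tested through the group where it was high. DESeq2 gave FOXJ1 no adjusted p and so made no call on it, and the filter of a mean of at least 50 counts removed it. RFX3 had 17.6, 17.8 and 18.3 CPM in the controls and 13.7, 10.5 and 12.2 CPM with ppk1 (log2 fold change -0.56, SE 0.09, edgeR adjusted p 1.5e-05). RFX2 stood at 19.8 ± 1.17 CPM in control cells and 14.6 ± 0.55 CPM with ppk1 (mean ± SD, n = 3; log2 fold change -0.44, SE 0.08, edgeR adjusted p 0.00029, and 0.056 without replicate C). MCIDAS, the upstream switch of multiciliated cells, had overlapping groups and a log2 fold change of 0.08. Whether the regulators bear on the dynein genes was not tested.

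**Figure D5:**
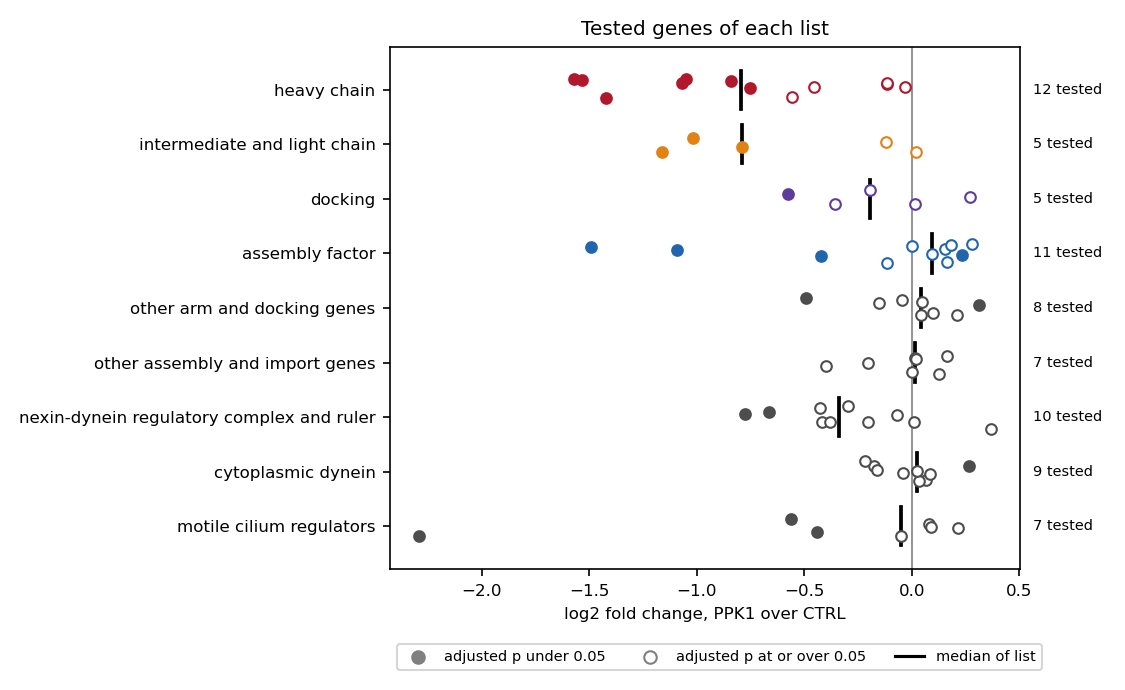
Log2 fold change, ppk1 over empty vector, of each tested gene in the 4 classes of the family and in 5 lists of the wider pathway. Filled points were called at an adjusted p below 0.05 and black bars are list medians, which are -0.80 and -0.79 for the first 2 classes, -0.34 for the nexin-dynein list and between -0.19 and 0.09 for the others.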

How the data were processed

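The authors deposited 1 table of raw counts, with 58051 Ensembl genes and 6 libraries, all 6 matched to samples by name. The submitters' processing notes name bcl2fastq 2.20, Trimmomatic, STAR, HTSeq, edgeR, DESeq, Cufflinks and Cuffdiff, with no roles. The genome build, annotation and strand setting are not given in the sources used here, so gene coordinates are left out. Promoter coordinates are RefSeq's. Totals ran from 40851783 to 67122986 counts.

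Counts were tested with edgeR 4.0.16 in R 4.3.3 (glmQLFit and glmQLFTest, filterByExpr with minimum count 10, TMM scaling, Benjamini-Hochberg adjustment over all 19574 genes, threshold 0.05). The replicate letter was a block, since the design text calls the libraries of a letter matched. Deviations from group means correlated at 0.109 (B), 0.135 (C) and 0.0476 (D) between matched libraries, against -0.120 to -0.00506 between unmatched ones. With 2 residual degrees of freedom, the test leans on dispersion shared across genes. CPM is edgeR's cpm on TMM-scaled library sizes. Log2 CPM used a prior count of 2, and the changes given for single pairs are differences of it. The SE is the absolute log2 fold change over the square root of F. The code was tested on simulated data. Chromosomes, lengths, GC content and overlaps came from GENCODE 29 by Ensembl identifier (57447 of 58051 found), and CPM per kb used the longest transcript. Members for which no overlap or shared sequence is printed had smaller values (up to 7.80% of exon sequence, for DNAL1) or none. Alternatives were no block, RLE and upper-quartile scaling, other filters, DESeq2 1.42.0, GC and length offsets (mgcv 1.9.3), thinning and leaving out each pair.

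The members, lists and tests were chosen with earlier results of these data known. Library values are given for each called member and for the 3 highest per length in each class, and called genes of the other lists are named. No protein sequences were used here.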

Additional observations from a re-analysis of the deposited data

How the results depend on the processing

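Of the 15 called members, 9 kept their call and direction in every alternative that gave a value: DNAH3, DNAH6, DNAH7, DNAH12, DNAH17, WDR78, WDR63, TTC25 and DNAAF1. Over the 11 alternatives the 15 genes gave 160 values, of which 128 kept the call and 32 kept only the direction.

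Without the replicate block 470 genes were called, with DESeq2 754, with GC and length offsets 2695, and from 406 to 2435 in the fits leaving out a pair, against 1777. A mean of at least 50 counts left 4 heavy chains and 1 assembly factor called lower, and gave a median of -1.03 for the intermediate and light chains. That median was -0.45 with no filter and -0.46 with DESeq2, which count DNAI2. DESeq2 called 1 assembly factor lower. Docking factors called lower numbered 2 with RLE scaling and with GC and length offsets, and 1 to 2 in the fits leaving out a pair. DNAAF5, called higher in the main comparison, made 0 assembly factors called higher without the block, with upper-quartile scaling, no filter, the 50-count filter, DESeq2, offsets and thinning, and 0 to 1 leaving out a pair. The assembly factor median was 0.0522 with offsets and 0.0431 to 0.124 leaving out a pair. Without its most counted member, the log2 ratio of summed CPM was -0.46 for the heavy chains (from -0.27) and -0.53 for the other arm subunits (from -0.36). Of the called genes, that filter removed DNAH2, DNAH3, DNAH8, DNAI1 and LRRC6, whereas PIH1D2 was still tested (adjusted p 0.059). Except for removed genes, the cause was not tested.

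Genes that were not called changed sign: DNAH11 (0.00683 with offsets), DNALI1 (-0.00194 with upper-quartile scaling, -0.0173 thinned), ARMC4 (-0.00565 and -0.0201 likewise) and DNAAF3 (0.0237 thinned). Leaving out a pair gave -0.15 to 0.11 for DNAH11, -0.12 to 0.18 for DNALI1, -0.00473 to 0.0359 for ARMC4, -0.40 to 0.0737 for CCDC114, -0.16 to 0.63 for CCDC103 and -0.0561 to 0.0249 for DNAAF3. Depth limits the genes with under 50 counts a library.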
